A study of Mus musculus with 7 samples.

Results

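The genes of the betaine and methionine cycle were examined for estrogen receptor beta (ERβ) binding in mouse ovary: Bhmt, Bhmt2, Dmgdh, Mat2a, Mtr, Cbs and Ahcy. These 7 genes, of 21755 protein-coding genes on the autosomes and chromosome X, were chosen by function, with earlier results of these data known. Each locus was the gene body plus 50 kb on each side (mm10, GENCODE). The assay was chromatin immunoprecipitation followed by sequencing (ChIP-seq), in which DNA held by an ERβ antibody is compared with sheared chromatin that was not immunoprecipitated (input). The data were 3 ERβ ChIP replicates and 2 inputs from ovaries of C57BL/6J mice that express their own ERβ. Each ChIP replicate pooled fresh ovaries of several mice of mixed ages, so a replicate is an average over animals and over all ovarian cell types. All ChIP libraries were made with the monoclonal antibody PPZ0506. The ChIP libraries from ovaries with deleted ERβ were not analysed here, so signal that does not depend on ERβ cannot be told apart from ERβ binding. The libraries hold DNA only, and markers of ovarian cell types could not be read from them.

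The methionine cycle makes S-adenosylmethionine, the methyl donor of the cell, and recycles the homocysteine that is left after the methyl group has been given away. Homocysteine is either methylated back to methionine, by a betaine-dependent or a folate-dependent enzyme, or drawn off toward cysteine. ERβ is a ligand-activated nuclear receptor, best known in the ovary from granulosa cells, and it binds the estrogen response element (ERE), a palindrome of the arm GGTCA and its reverse complement with 3 bases between them.

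A site was a run of 200-bp windows in which ChIP signal was over 4 times the mean of both inputs in at least 2 of 3 ChIP libraries. The fold over input therefore chose the sites, and the folds given for them are a description. The 7 loci held 6 sites. Bhmt and Bhmt2 shared 1 site, Mtr had 1, Cbs had 4, and Dmgdh, Mat2a and Ahcy had none. Thus 4 of the 7 members had a site in their locus, while 23.9% of all protein-coding genes did, and the median locus length over all protein-coding genes was 117 kb. In windows, 8 of 3815 in the member loci were called (0.210%), against 0.0444% of 12796535 windows in the genome. Of these 8, 6 were among the 643 windows of the Cbs locus, with 1 at Bhmt and Bhmt2 and 1 at Mtr. The pooled share thus comes mostly from 1 locus. Of the 6 sites, 3 were over 4-fold in all 3 ChIP libraries, and these 3 were at Cbs. Among all 4037 sites in the genome, 67.5% were over 4-fold in all 3.

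Sequences of 4 sites are shown because they hold the closest ERE match of each locus with a site, or lie nearest to the start of a member gene. They are plus-strand mm10 sequence, and the capitals mark the best ERE match in the 200 bp centred on the highest ChIP signal. Bhmt site 1 is chr13:93608421-93608540, Mtr site 1 is chr13:12159981-12160100, Cbs site 3 is chr17:31638201-31638320 and Cbs site 4 is chr17:31639741-31639860.
Bhmt site 1: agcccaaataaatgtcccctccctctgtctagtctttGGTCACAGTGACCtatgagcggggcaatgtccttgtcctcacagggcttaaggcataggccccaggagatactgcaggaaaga
Mtr site 1: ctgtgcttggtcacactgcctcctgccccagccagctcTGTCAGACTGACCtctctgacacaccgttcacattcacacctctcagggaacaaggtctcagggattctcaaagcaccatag
Cbs site 3: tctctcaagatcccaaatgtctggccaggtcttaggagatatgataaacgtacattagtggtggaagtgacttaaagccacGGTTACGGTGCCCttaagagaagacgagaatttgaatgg
Cbs site 4: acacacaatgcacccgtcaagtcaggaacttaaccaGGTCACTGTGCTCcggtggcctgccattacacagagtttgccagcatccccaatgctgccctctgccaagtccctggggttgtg

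Against the consensus GGTCANNNTGACC, with positions counted from 1 at its 5′ end, the Bhmt match had 0 mismatches and the Mtr match had 1, G1T. The match at Cbs site 3 had C4T and A11C, and that at Cbs site 4 had A11C and C12T. The other Cbs sites had GGTCATGATGGCA (site 2, A11G and C13A) and GGACACGGCGTCC (site 1, T3A, T9C and A11T). Hence 5 of the 6 sites held an ERE with at most 2 mismatches. The same was true of 69.6% of all sites and of 6.68% of all 200-bp windows in the genome. With at most 1 mismatch, the counts were 2 of 6 sites, 34.8% of all sites and 0.529% of windows. The match at Cbs site 1, with 3 mismatches, is of a kind that 42.0% of all windows hold.

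The best ERE match lay close to the highest ChIP signal at each of the 6 sites, with its centre 3.5 to 27.5 bp away. At Bhmt site 1 the distance was 16.5 bp, and at Cbs site 4 it was 17.5 bp. The search covered only the 200 bp centred on that signal, and of equally good matches the nearest was taken. Some closeness was thus set by the search, and no distance over all sites is given beside it. The highest point also differed between the ChIP libraries, over a range of 20 bp at Cbs site 4, 60 bp at Bhmt site 1 and 90 bp at Cbs site 1. The distances are therefore not resolved to a few bp. The peaks were narrow, with a width at 0.5 of their height of 200 to 240 bp. Other motifs had to match in full, on either strand. The single arm GGTCA, which is part of a well-matched ERE, was present at 4 of 6 sites, against 86.3% of all sites and 26.5% of windows. FOXO (TGTTTAC) had a match at 1 site, Cbs site 2, against 5.28% of all sites and 2.98% of windows. There were 0 matches at the 6 sites for the NR5A motif CAAGGTCA, which contains the ERE arm, and which 11.7% of all sites and 1.09% of windows held. The same was true of the GATA motif, spelled AGATAA (19.9% of all sites, 13.3% of windows). It also held for the AP-1 motif, spelled TGANTCA (8.94% and 5.93%), and for the C/EBP motif, spelled TTGCNNAA (7.46% and 9.35%). The study scanned for a wider GATA motif, BNWGATAA, where B is any base but A, and W is A or T. The printed sequence of Cbs site 3 holds a match to it, tatgataa. Shares for the wider motif were not computed.

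**Figure D1:**
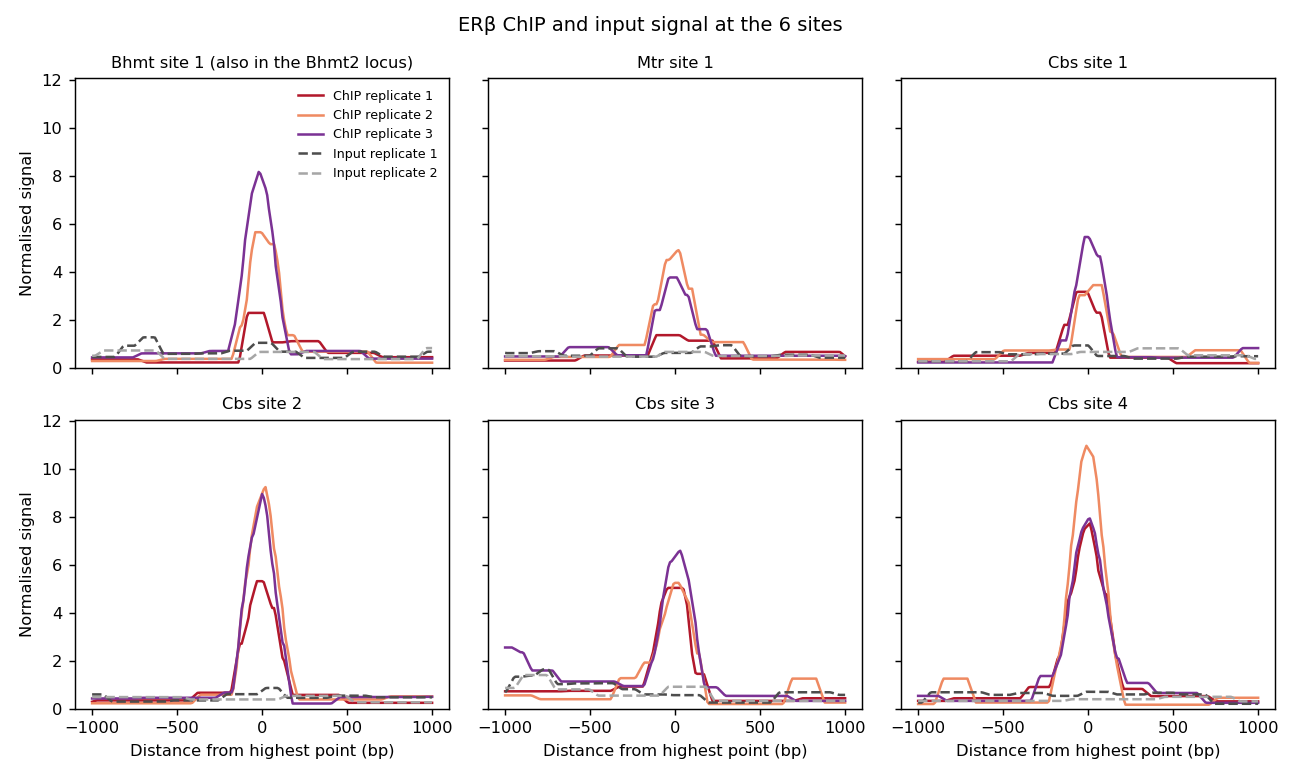
Normalised signal (vertical axis) against distance in bp from the highest mean ChIP signal (horizontal axis) at the 6 sites, with the 3 ChIP replicates as solid and the 2 inputs as dashed lines. ChIP replicate 1 is the lowest ChIP line at Bhmt site 1 and Mtr site 1, while the 3 ChIP lines at Cbs sites 3 and 4 rise together above both inputs.

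Bhmt encodes betaine-homocysteine methyltransferase, which moves a methyl group from betaine to homocysteine and yields methionine and dimethylglycine. Its gene (ENSMUSG00000074768.6, minus strand) spans chr13:93616675-93637961. The site lay in intergenic sequence downstream of the gene, 29.5 kb from the gene start and 8.2 kb past the gene end. Among protein-coding genes, Bhmt had the nearest start, whereas the nearest start of any annotated transcript belonged to Gm15622, at 16902 bp.

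Signal values are ordered as ChIP replicates 1, 2 and 3 and Input replicates 1 and 2 throughout. In the window of this site, chr13:93608401-93608600, it was 1.77, 5.05 and 6.32 in ChIP against 0.938 and 0.606 in input. All ChIP libraries were above both inputs, and ChIP replicate 1 was well below the other ChIP libraries. Over the mean input, the folds were 2.30, 6.54 and 8.19, with a mean of 5.68 ± 3.04 (SD, n = 3). ChIP replicate 1 reached 0.312 of the mean of the other ChIP libraries, a ratio that was lower at only 1.54% of all sites, where the median was 0.807. The site thus rested on ChIP replicates 2 and 3: it was not called when either of these was left out, or when all 3 libraries were required. With a ChIP library left out, both remaining ones had to pass, so this follows from the folds and is no separate check. By mean fold, 42.9% of all sites were weaker.

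The name of the track splits the libraries into ChIP replicate 1 with Input replicate 1, and the other 3 libraries, and the reason for the naming is not given in the sources used here. Within these sets, the fold at the Bhmt site was 1.89 in ChIP replicate 1 over Input replicate 1, and 8.33 and 10.4 in ChIP replicates 2 and 3 over Input replicate 2. Input replicate 1 was 1.55 times Input replicate 2 in this window, where the median over all sites was 1.15. The part of the track set in the spread between replicates was not tested.

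Bhmt2 (ENSMUSG00000042118.7, chr13:93655720-93674302, minus strand) encodes a relative of Bhmt that methylates homocysteine with S-methylmethionine. Its locus overlaps that of Bhmt, and the shared site lay 65.8 kb from the Bhmt2 start and 47.2 kb past its end. With a flank of 10 kb in place of 50 kb, the site remained in the Bhmt locus and no longer counted for Bhmt2.

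Dmgdh encodes dimethylglycine dehydrogenase, the mitochondrial enzyme that takes the dimethylglycine made by Bhmt on to sarcosine. It lies head to head with Bhmt2 (ENSMUSG00000042102.7, chr13:93674433-93752833, plus strand) and had no site. Its highest window, chr13:93676801-93677000, was in a Dmgdh intron, 2.47 kb from the gene start. Signal there was 2.76, 2.14 and 1.67 in ChIP against 0.664 and 0.446 in input. The folds of 4.98, 3.86 and 3.00 (mean 3.95 ± 0.99, SD, n = 3) placed it just outside the threshold, with ChIP replicate 1 the highest. The weakest Cbs site, with folds of 3.85, 4.01 and 6.21, was just inside it. The Dmgdh window was called with a threshold of 3-fold, and also when Input replicate 2 alone was used. It is likewise the highest uncalled window of the Bhmt and Bhmt2 loci.

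Mtr encodes methionine synthase, the cobalamin-dependent enzyme that methylates homocysteine with a methyl group from folate. Its site was chr13:12160001-12160200, in intergenic sequence 22.7 kb past the gene end and 98.1 kb from the gene start (ENSMUSG00000021311.9, chr13:12182712-12258113, minus strand). The nearest annotated start, 714 bp away, was that of Gm47323. Among protein-coding genes, the nearest start was that of an Mtr transcript, 40447 bp away. Signal was 1.24, 3.64 and 2.90 in ChIP against 0.673 and 0.66 in input. As at Bhmt, ChIP replicate 1 was the lowest ChIP library, and the groups did not overlap. The folds were 1.85, 5.46 and 4.36, with a mean of 3.89 ± 1.85 (SD, n = 3), and 4.01% of all sites were weaker. ChIP replicate 1 reached 0.378 of the mean of the other ChIP libraries, lower than at all but 2.92% of sites. Leaving out ChIP replicate 2 or 3, or requiring all 3, removed the site, which again follows from the folds.

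Cbs encodes cystathionine beta-synthase, which joins homocysteine to serine and so takes it out of the methionine cycle. Its locus (gene body ENSMUSG00000024039.15, chr17:31608894-31637238, minus strand) held 4 sites, and 178 protein-coding genes (0.818%) had as many or more. The strongest was site 4, chr17:31639601-31640000, in intergenic sequence 2.56 kb upstream of the Cbs start. In its best window, signal was 4.86, 6.50 and 4.88 in ChIP against 0.571 and 0.372 in input. The 3 ChIP libraries were close to each other and far above both inputs. The folds were 10.3, 13.8 and 10.3, with a mean of 11.5 ± 2.00 (SD, n = 3), which ranked 628 among 4037 sites.

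Site 3 of Cbs, chr17:31638201-31638400, lay 1022 bp upstream of the start. Signal was 4.07, 4.35 and 5.55 in ChIP against 0.573 and 0.92 in input, and the folds were 5.46, 5.83 and 7.44 (mean 6.24 ± 1.05, SD, n = 3). The next window toward the gene, chr17:31638001-31638200, was not called, with folds of 3.48, 3.58 and 3.15.

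The other 2 Cbs sites lay past the gene end and inside Pknox1, a homeobox gene that neighbours Cbs, so position does not assign them to Cbs alone. Site 2, chr17:31604601-31605000, was 4.05 kb past the Cbs end. It overlapped the last coding exon of several protein-coding Pknox1 transcripts, and the annotated UTR of a transcript subject to nonsense-mediated decay. Signal in its best window was 3.90, 6.65 and 5.78 in ChIP against 0.742 and 0.422 in input, with folds of 6.70, 11.4 and 9.94 (mean 9.36 ± 2.42, SD, n = 3). Site 1, chr17:31591001-31591200, was in a Pknox1 intron 17.8 kb past the Cbs end, 613 bp from a Pknox1 start. It was the weakest of the 4, at a mean fold of 4.69 ± 1.32 (SD, n = 3), with ChIP signal of 2.76, 2.88 and 4.46 and input signal of 0.791 and 0.643.

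Mat2a encodes a methionine adenosyltransferase, the enzyme that makes S-adenosylmethionine, and Ahcy encodes the hydrolase that splits S-adenosylhomocysteine into adenosine and homocysteine. Neither had a site. The highest window of the Mat2a locus was chr6:72400201-72400400, 39.3 kb from the Mat2a start in intergenic sequence, where Vamp8 had the nearest protein-coding start. Its signal was 1.81, 2.09 and 2.19 in ChIP against 0.65 and 0.559 in input, and its folds of 2.99, 3.46 and 3.62 were alike in the 3 libraries. In the Ahcy locus the highest window, chr2:155108001-155108200, had a mean fold of 1.97 ± 1.12 (SD, n = 3). Only ChIP replicate 2 was raised there, at a signal of 1.20, while ChIP replicates 1 and 3 had 0.444 and 0.531 and the inputs 0.28 and 0.447. No setting tried gave Ahcy a site, and Mat2a gained one only at 3-fold.

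**Figure D2:**
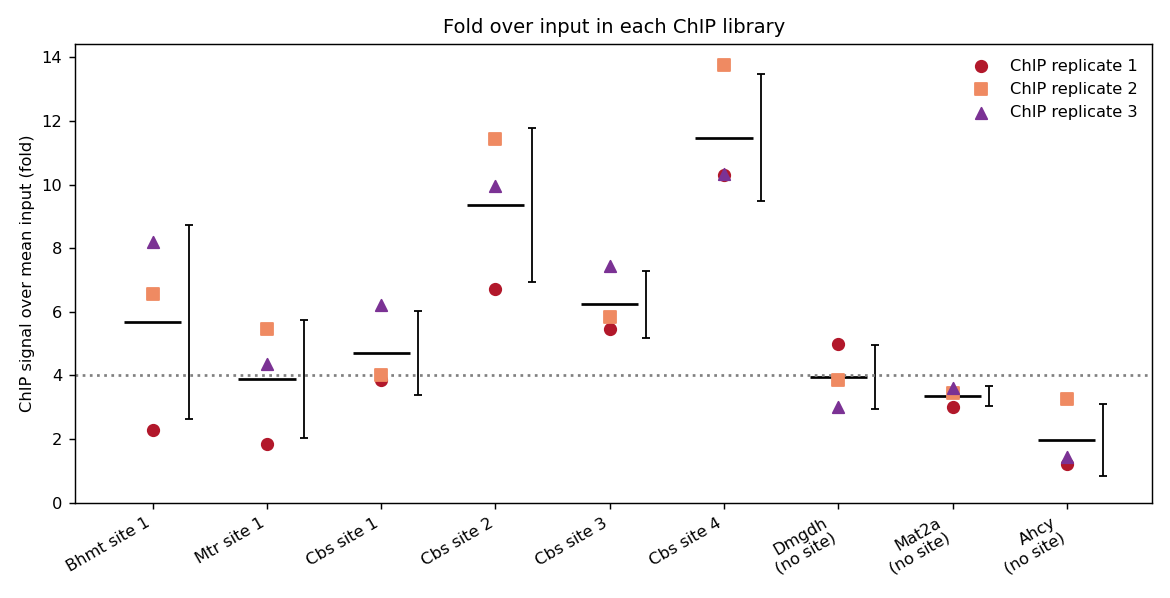
ChIP signal over mean input (fold, linear axis from 0) in each of the 3 ChIP replicates at the 6 sites and at the highest window of the 3 genes without a site. Horizontal bars are means, vertical bars are SD (n = 3) and the dotted line is the 4-fold threshold, which ChIP replicate 1 misses at Bhmt site 1 (2.30) and Mtr site 1 (1.85) and passes at Cbs sites 2, 3 and 4.

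Whether ChIP differed from input was tested across the genome, with limma on log2(signal + 0.5) of 200-bp windows, 3 ChIP libraries against 2 inputs. Of 3773 windows tested in the member loci, 3 were higher in ChIP at an adjusted p under 0.05, where 0.0153% of 12125287 windows were higher in the genome. All 3 belonged to Cbs sites: both windows of site 4 and the better window of site 2. At site 4 the better window differed by 2.60 ± 0.46 on the log2 scale (SE, limma adjusted p = 0.0117). At site 2 it was 2.44 ± 0.47 (SE, limma adjusted p = 0.0314).

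The other sites did not pass this test. The windows of the sites had been chosen by fold in these same libraries, so the direction of each difference was set by the choice. Bhmt site 1 differed by 1.81 ± 0.49 on that scale (SE, limma adjusted p = 0.636). The value was 2.05 (SE 0.46) at Cbs site 3, 1.64 (SE 0.45) at Cbs site 1 and 1.31 (SE 0.44) at Mtr site 1, and the limma adjusted p was 0.185, 0.666 and 1. The Dmgdh intron window reached 1.34 (SE 0.40). The calls at Cbs did not hold in every fit with a library left out. Without ChIP replicate 2, 0 windows of the member loci passed. Without ChIP replicate 3, the window of site 2 did not pass (limma adjusted p = 0.0505). At site 4 the log2 difference was 2.47 without ChIP replicate 2, 2.75 without Input replicate 1 and 2.45 without Input replicate 2. With the track set as a term in the fit, site 4 passed (limma adjusted p = 0.0214) and site 2 did not (limma adjusted p = 0.0624). For the signal of the strongest site of each locus, an exact permutation test of 3 ChIP against 2 input libraries gave a one-sided p = 0.1 at Bhmt, Mtr and Cbs, the smallest that 10 ways to split the libraries allow. The windows had been chosen on these same values, so this outcome was fixed by the choice and is no support for it.

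Promoters, taken from 1 kb before to 100 bp after the gene start, were compared for all 21755 protein-coding genes, a measure that did not choose the sites. By limma with adjustment over all genes, 0 promoters were higher in ChIP (0%), the members included. At an unadjusted limma p under 0.05, 356 were higher and 1732 were lower. The median log2 fold change over all promoters was -0.12, and the members are read against it. Cbs and Bhmt stood highest among the members. At the Cbs promoter, whose outer edge overlaps site 3, signal was 1.15, 0.982 and 1.82 in ChIP against 0.998 and 0.831 in input. ChIP replicate 2 was below Input replicate 1, so the groups overlapped. The log2 fold change was 0.34 ± 0.22 (SE, limma adjusted p = 0.568), above that of 98.5% of promoters. It was 0.15 without ChIP replicate 3, and 0.08 with 500 bp on each side of the start.

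At the Bhmt promoter, signal was 0.574, 0.676 and 0.941 in ChIP against 0.616 and 0.325 in input, again overlapping. The log2 fold change was 0.35 ± 0.20 (SE, limma adjusted p = 0.535), above that of 98.6% of promoters. It was 0.13 without Input replicate 2, 0.57 without Input replicate 1 and 0.23 without ChIP replicate 3. Bhmt2 and Dmgdh were near 0, at 0.02 (SE 0.15) and -0.08 (SE 0.12). Mtr had -0.24 (SE 0.13) and Ahcy had -0.34 (SE 0.18). In both genes, and at Dmgdh, every ChIP library was below both inputs. The share of all promoters with that order is not given here. The lowest value was that of Mat2a, -0.53 (SE 0.30), where ChIP replicate 3 (1.27) was above the inputs (1.19 and 1.20) and ChIP replicates 1 and 2 (0.403 and 0.511) were below them. Mat2a was above only 1.38% of promoters, Ahcy above 12.8%, Mtr above 27.8% and Dmgdh above 59.1%. Without ChIP replicate 3, Mat2a had -0.83, and without ChIP replicate 1 it had -0.34. Ahcy had -0.21 without ChIP replicate 1, and Mtr had -0.15 without Input replicate 1. None of these passed the test, and the limma adjusted p ran from 0.524 to 0.983 over the 7 genes.

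**Figure D3:**
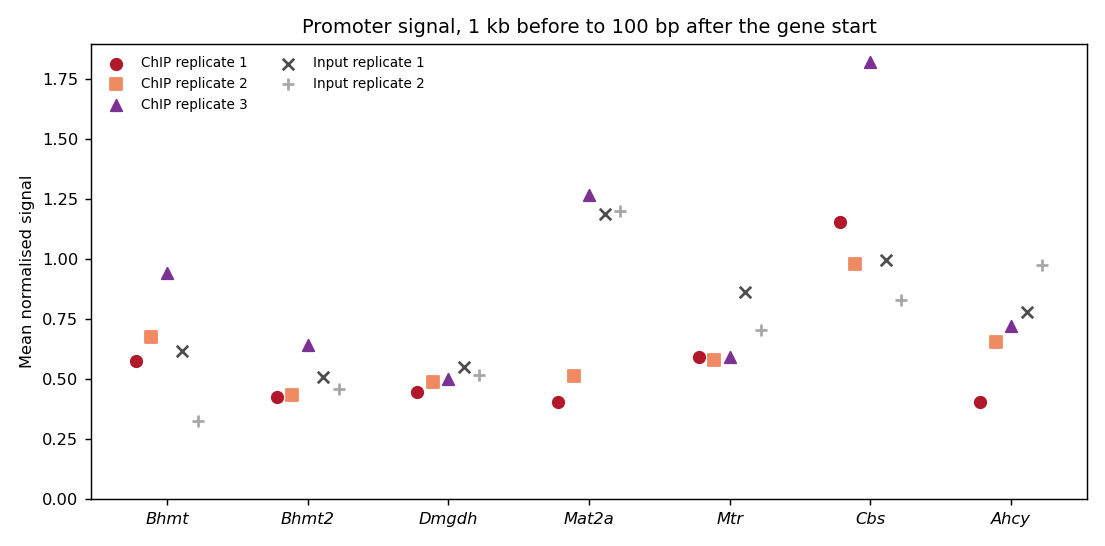
Mean normalised signal (linear axis from 0) from 1 kb before to 100 bp after the start of each of the 7 genes, with 1 point per library. ChIP and input points overlap at Bhmt, Bhmt2, Mat2a and Cbs, and all ChIP points lie below both inputs at Dmgdh, Mtr and Ahcy. The share of all promoters with that order is not given, and the median log2 fold change over all promoters was -0.12.

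Most close ERE matches in the member loci lay outside the sites. Every ERE with at most 1 mismatch was located in the 7 loci, a search chosen after the sites had been seen, and signal was read in the 200 bp around it. There were 27 such matches. The only one with 0 mismatches was that of Bhmt site 1, and it was over 4-fold in 2 ChIP libraries (mean fold 5.98 ± 3.22, SD, n = 3). In the genome, 12.5% of 2357 matches with 0 mismatches were. Of the 26 matches with 1 mismatch, 1 was over 4-fold, that of Mtr site 1, where 1.92% of 70103 were in the genome. The remaining 25 had mean folds from 0.208, taken over an input set to its genome mean of 0.368, to 1.75. Their median was 0.977, and no single library exceeded 2.93 at any of them. Of these, 9 lay in repeats masked in the assembly.

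Close relatives of the matches at the sites were among those without such signal, and 5 matches are shown to compare them. The first 2 differ from each other by T3C of the consensus alone, and the last 3 all carry G1T.
Bhmt site 1, chr13:93608458-93608470: GGTCACAGTGACC
Mat2a locus, chr6:72474452-72474464: GGCCACAGTGACC
Mtr site 1, chr13:12160019-12160031: TGTCAGACTGACC
Cbs locus, chr17:31560005-31560017: TGTCATTATGACC
Ahcy locus, chr2:155027829-155027841: TGTCACTATGACC

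Around the Mat2a match, ChIP signal was 0.17, 0.474 and 0.31 and input signal was 0.445 and 0.43, which gave a mean fold of 0.726 ± 0.347 (SD, n = 3). Around the Mtr match it was 4.69 ± 2.31, from ChIP signal of 1.32, 4.09 and 3.23 and input signal of 0.599 and 0.63. The Cbs and Ahcy matches with the same substitution had mean folds of 0.438 ± 0.10 and 0.208 ± 0.204 (SD, n = 3), and both lay in masked repeats. ChIP signal at them was at or below 0.24, and input signal was also low at the Ahcy match, at 0.08 and 0.11, so that little of either was measured there. The fold at the Ahcy match is over the genome mean of the inputs, 0.368, and not over the lower input measured there. A further match lay within the Ahcy gene, 0.905 kb from its start at chr2:155073586-155073598 (A11T), and had a mean fold of 1.01 ± 0.178 (SD, n = 3).

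**Figure D4:**
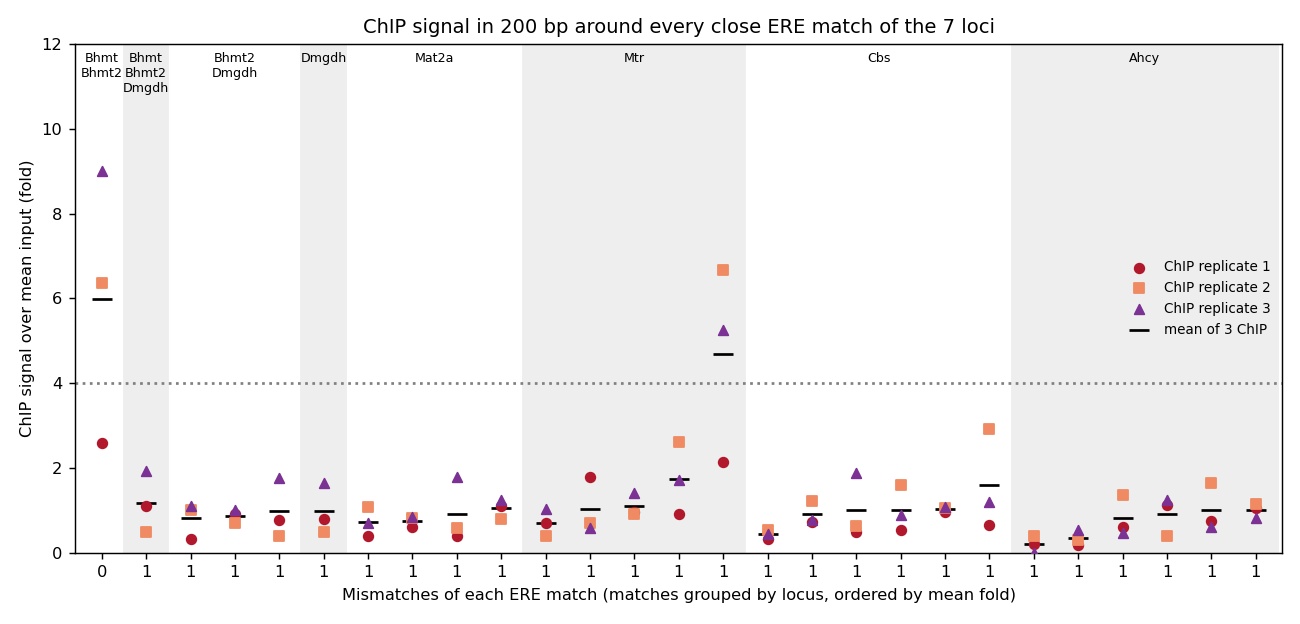
ChIP signal over mean input (fold, linear axis from 0) in the 200 bp around each of the 27 ERE matches with at most 1 mismatch, grouped by locus and ordered by mean fold within it, with 1 symbol per ChIP replicate, a bar for the mean and a dotted line at 4-fold. The matches of Bhmt site 1 and Mtr site 1 stand above the line in ChIP replicates 2 and 3, and the other 25 stay at or below 2.93 in every library.

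Further genes around the cycle were taken from a list of 46, written by function with earlier results of these data known. Of these, 5 (10.9%) had a site in their locus, for 10 sites in all, against 23.9% of protein-coding genes. Of 13 genes of remethylation and the folate cycle, 0 had a site. The same held for 2 partners of methionine adenosyltransferase, 3 genes of S-adenosylhomocysteine and adenosine removal and 5 users of methyl groups. Sites were found for 1 of 7 genes of choline and betaine supply, 2 of 3 of dimethylglycine and sarcosine, 1 of 5 of transsulfuration and 1 of 8 of methionine salvage and polyamines. In the 41 loci without a site, the highest window had a mean fold from 1.71 to 3.64.

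Pemt, which encodes the enzyme that methylates phosphatidylethanolamine to phosphatidylcholine and so feeds choline supply, had 5 sites. The strongest, chr11:59956601-59957200, was in an intron of the neighbouring gene Med9, 89.5 kb from the Pemt start. Its signal was 20.3, 27.4 and 24.9 in ChIP against 1.02 and 0.797 in input. The fold of 26.6 ± 3.98 (SD, n = 3) was the highest over the members and the listed genes, and its best ERE had 1 mismatch. A Pemt site inside the first 2 kb of the gene, chr11:60044601-60045000, lay 1.6 kb from the start and held an ERE with 0 mismatches. Signal there was 5.86, 7.89 and 10.5 in ChIP against 1.37 and 0.516 in input (fold 8.56 ± 2.45, SD, n = 3).

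Sardh, which encodes the dehydrogenase of the sarcosine made by Dmgdh, had 1 site, in an intron of its neighbour Dbh. Its mean fold was 4.08 ± 1.30 (SD, n = 3), and it held an ERE of 0 mismatches. The site lay -243 bp from a Dbh start (negative is upstream) and 71.5 kb from the Sardh start. Pipox, which encodes a peroxisomal oxidase that also acts on sarcosine, had 2 sites in an intron of Myo18a, with mean folds of 9.88 ± 0.746 and 3.86 ± 0.969 (SD, n = 3). The site of Csad, a gene of taurine synthesis, was in an intron of Rarg (6.27 ± 1.93), 351 bp from a Rarg start and -40.2 kb from the Csad start. That of Mri1, of methionine salvage, was intergenic and had Nanos3 as the nearest protein-coding start (4.16 ± 1.75). Of the 10 sites, 3 were thus inside the listed gene itself, all of them in Pemt. The best window of each site was chosen on the same values that were then tested. In the limma test of windows, the best windows of Pemt sites 2 and 5 and of Pipox site 1 were higher in ChIP, with log2 fold changes of 4.13 (SE 0.31), 2.60 (SE 0.46) and 2.67 (SE 0.45) and limma adjusted p of 1.93e-10, 0.012 and 0.00673. Pemt site 2 passed with each library left out. Pemt site 5 did not pass without ChIP replicate 2, ChIP replicate 3 or Input replicate 2 (limma adjusted p from 0.0689 to 0.258), nor Pipox site 1 without ChIP replicate 2 or Input replicate 1 (0.141 and 0.219).

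**Figure D5:**
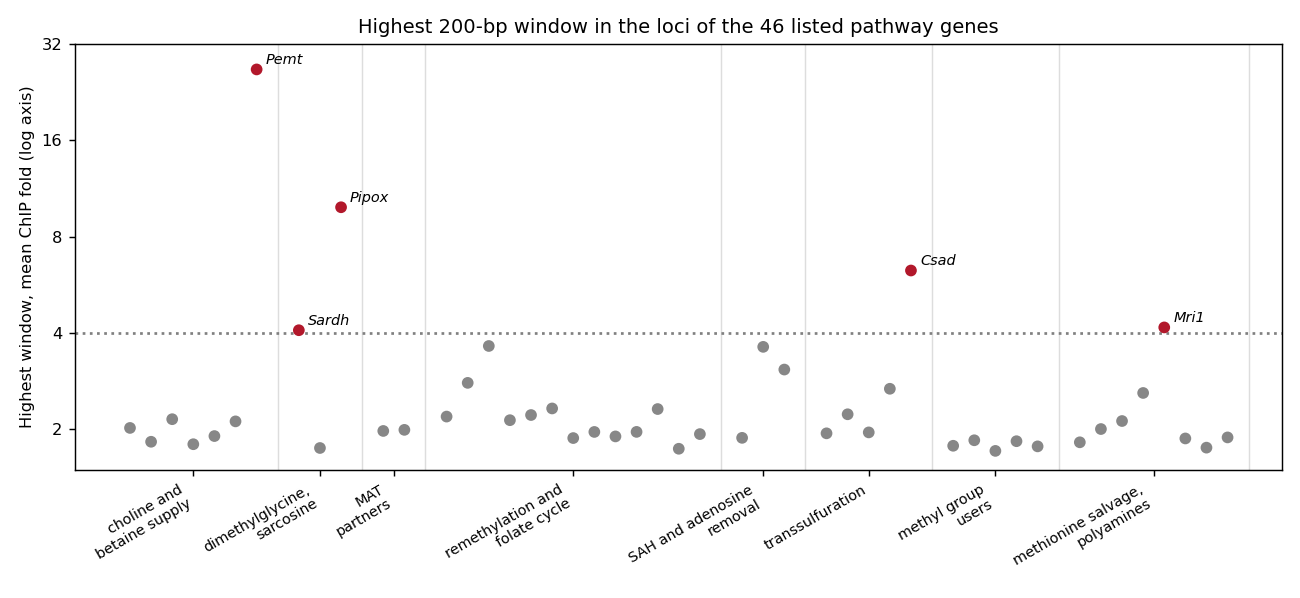
Mean ChIP fold of the highest 200-bp window (log axis) in the locus of each of the 46 listed genes, grouped by role, with the dotted line at 4-fold. The 5 genes with a site are red and named, from Sardh at 4.08 to Pemt at 26.6, and the 41 others are grey, between 1.71 and 3.64.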

How the data were processed

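Sample groups were taken from the sample titles. Per the study's methods and the submitters' processing notes, the authors aligned reads with STAR to mm10, kept uniquely mapped reads and used HOMER. The values are normalised coverage signal per position, deposited by the authors on a common scale: totals were 928 to 948 M per library (signal times length), with a smallest value of 0.05. Values are means over segments with a median of 269 to 519 bp, so the tracks hold no read counts and no interval from counts is given. That the ChIP replicates came from separate pools is stated by the study, whereas the origin of the inputs is not given in the sources used here.

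Mean signal was computed in 200-bp windows without N on the autosomes and chromosome X (genome mean 0.362 to 0.370). The input was set to at least 0.368, the genome mean of both inputs. Touching windows over 4-fold in at least 2 ChIP libraries were merged. Annotation was GENCODE vM21 and sequence GRCm38. Windows with a mean signal of at least 0.1, and promoters without a filter, were tested with limma 3.58.1 (R 4.3.3; lmFit, eBayes with a trend) on log2(signal + 0.5), Benjamini-Hochberg adjusted. That scale understates changes of low values. The fit was tested on simulated data. A count test was not used because the tracks hold no counts. All 7 members, all of their sites, the highest window of members without a site and the listed genes with a site are named. Members and lists were chosen with earlier results of these data known. Alternatives changed fold, inputs, replicates, grid, flank, pseudocount, filter, replicate block, track-name batch, GC content and window size.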

Additional observations from a re-analysis of the deposited data

How the results depend on the processing

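The counts of sites moved with the threshold, the flank and single ChIP libraries. At 8-fold there were 2 sites in the loci, for 1 member and 2 listed pathway genes. Requiring all 3 ChIP libraries gave 3 sites, 1 member and 3 pathway genes, where 17.3% of all protein-coding genes had a site. Leaving out 1 library at a time gave 3 to 8 sites, 1 to 5 members and 3 to 7 pathway genes. The lowest counts came without ChIP replicate 2 and, for sites and members, also without ChIP replicate 3. With a ChIP library left out, both remaining ones had to pass. Sites in the genome fell as well, from 4037 to 2893 without ChIP replicate 2 and 3036 without ChIP replicate 3. A flank of 10 kb gave 4 sites, 2 members and 1 pathway gene, where 11.6% of all protein-coding genes had a site. A flank of 100 kb gave 9 sites, 5 members and 14 pathway genes, where 35.8% of all protein-coding genes had one. This share was 23.9% with the flank of 50 kb, and it was lower at 8-fold as well. In these settings the counts of members and pathway genes moved in the direction of that share. With each ChIP library over the input of its own track set, a setting chosen after seeing the data, 7 sites and 5 members were found. With at most 1 mismatch, 2 sites held an ERE. The mean fold of the strongest Cbs site was 14.2 around its highest point and from 9.47 to 14.5 with 1 library left out. The mean fold of the strongest Bhmt and Mtr sites moved by less than 1 SD.

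In the window test, 1854 windows of the genome and 3 of the member loci were higher in ChIP. The counts were 4966 and 7 with a pseudocount of 0.1, and 267 and 0 with a pseudocount of 1. They were 685 to 2048 and 0 to 3 with 1 library left out. With a pseudocount of 0.1, Bhmt site 1 also passed (log2 fold change 2.21, limma adjusted p = 0.0397), as did Cbs sites 1 and 3. Over 11 alternatives the adjusted p of Bhmt site 1 ran from 0.0397 to 1. The promoter test gave 0 higher promoters, but 1 with a pseudocount of 0.1, 13 with a mean signal of at least 0.25, 109 with GC content removed and 1 to 12 with 1 library left out. No member promoter passed in any of these. With 1 library left out, the log2 fold change ran from 0.15 to 0.47 at the Cbs promoter and from 0.13 to 0.57 at the Bhmt promoter, and it was 0.08 at Cbs with 500 bp on each side of the start. The Bhmt2 promoter changed sign: it ran from -0.082 to 0.069 with 1 library left out (below 0 without ChIP replicate 3 or Input replicate 2) and was -0.046 with 500 bp on each side of the start. The cause of these changes was not tested.

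The labels number ChIP and input alike, without saying what a number marks. The track names put Input replicate 1 with ChIP replicate 1, and Input replicate 2 with ChIP replicates 2 and 3. Over the tested windows, deviations from the group mean correlated at 0.0172 for the libraries numbered 1 and at -0.00637 for those numbered 2. With the replicate block, in which ChIP replicate 3 has no partner and adds nothing to the difference, 5267 windows and 17 promoters were higher, 3 windows in the member loci were, and the Bhmt2 promoter was at -0.082. The tracks hold no read counts, so a difference at windows of low signal, such as those of the Ahcy locus, could not be judged beyond the spread of 5 libraries.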
